A study of Oryza sativa with 6 samples.

Results

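Nitrate reductases and glutamine synthetases, the enzymes at both ends of nitrate assimilation, were followed in RP2068-18-3-5 (RP), a resistant indica variety of rice, at the site where gall midge maggots feed. The members were chosen by name. All probe sets of NR1, NIA1, GLN1-1, GLN1-2, GLN1-3 and GLN2 were taken from the annotation of the array, where NR1 and NIA1 are both synonyms of a single gene (LOC4345795). This gave 7 probe sets for 5 genes. A further 3 probe sets stand for LOC_Os02g53130 and LOC_Os09g16520, which the study's tables describe as nitrate reductases, so that 10 of the 57381 probe sets of the array are members, for 7 genes and loci (the annotation names 17905 genes by probe sets of 1 gene). All 10 passed the filter on low signal.

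The infested group (RP-I) was RP exposed at 15 days of age to 25 females and 10 males of gall midge biotype GMB1, which is avirulent on RP. The un-infested group (RP-UI) was RP of the same age, handled alike but not exposed. All plants carry the recessive resistance gene gm3. From both groups 1 cm of stem tissue was cut at 24, 48 and 72 hours after infestation (hai), and each array joins these times, so no member has a time course. Each group has 3 arrays, and each tray was a biological replicate. A single variety was used, and no susceptible host was measured.

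Plants take up nitrogen mainly as nitrate and ammonium. Nitrate reductase turns nitrate into nitrite in the cytosol, nitrite reductase makes ammonium of it in the plastid, and glutamine synthetase joins ammonium to glutamate. Rice has cytosolic forms of glutamine synthetase, encoded by GLN1-1, GLN1-2 and GLN1-3, which serve growth, grain filling and the reuse of nitrogen from older tissue, and a plastid form, encoded by GLN2, which mainly takes back the ammonium set free in photorespiration.

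The values are log2 signals made by RMA, which brings all arrays to a like distribution (array medians 5.44 to 5.49). A level is therefore relative to the rest of the transcripts, and probe sets cannot be set against each other by level. RP-I was compared with RP-UI with limma's moderated test over the 51532 probe sets kept, a call being an adjusted p under 0.05 (Benjamini and Hochberg). Array RP-I 3 correlated more closely with RP-UI 3 (r = 0.973) than with RP-I 1 or RP-I 2 (r = 0.967 and 0.962). Arrays with the same replicate number deviated alike, and a second fit therefore took the number as a block. Arrays numbered 1 and 2 also deviated alike across numbers (r = 0.295 and 0.244), so their pairing is uncertain. Markers of dividing tissue were measured on all arrays, and 11 of their 13 probe sets had a lower mean in RP-I, both of OSH1 being higher. Those of PCNA, MCM2, MCM4, MCM5, MCM6 and MCM7, 6 in all, were called lower, against 0.328% of all probe sets. With the block 10 were called lower and 1 higher, against 4.44% and 4.06%. The summed linear signal of the 13 was 2508 to 6731 in RP-I and 17738 to 22832 in RP-UI. In 1 cm of mixed tissue, fewer cells of a type and less RNA per cell cannot be told apart.

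In both probe sets of the plastid GLN2 every RP-I array lay below every RP-UI array, as in 9.73% of all probe sets tested. The cytosolic GLN1-1 had a higher signal in each replicate pair, though its groups overlapped and the pairing is uncertain. GLN1-2 was higher in 2 pairs of 3, and GLN1-3 and NIA1 showed no common direction. None of the 7 probe sets chosen by annotation passed limma at an adjusted p under 0.05, a threshold passed by 0.563% of all probe sets tested (0.235% higher and 0.328% lower in RP-I). An unadjusted p of 0.05 or under was reached by 1 of the 7, a GLN2 probe set, against 14.2% of all probe sets, and with a 2-fold difference besides by 0 of the 7, against 5.56% (2.9% lower in RP-I). Once the number entered as a block, the same GLN2 probe set passed the adjusted threshold, against 8.5% of all probe sets (4.44% lower in RP-I), and 4 of the 7 reached an unadjusted p of 0.05 or under, against 23.1%. The 7 probe sets had a median log2 fold change of -0.11, and that of all probe sets tested was 0.01. The sign of the members' median rests on 1 array, since it was 0.30 without RP-I 3, and 0.28 without both arrays numbered 3.

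**Figure D1:**
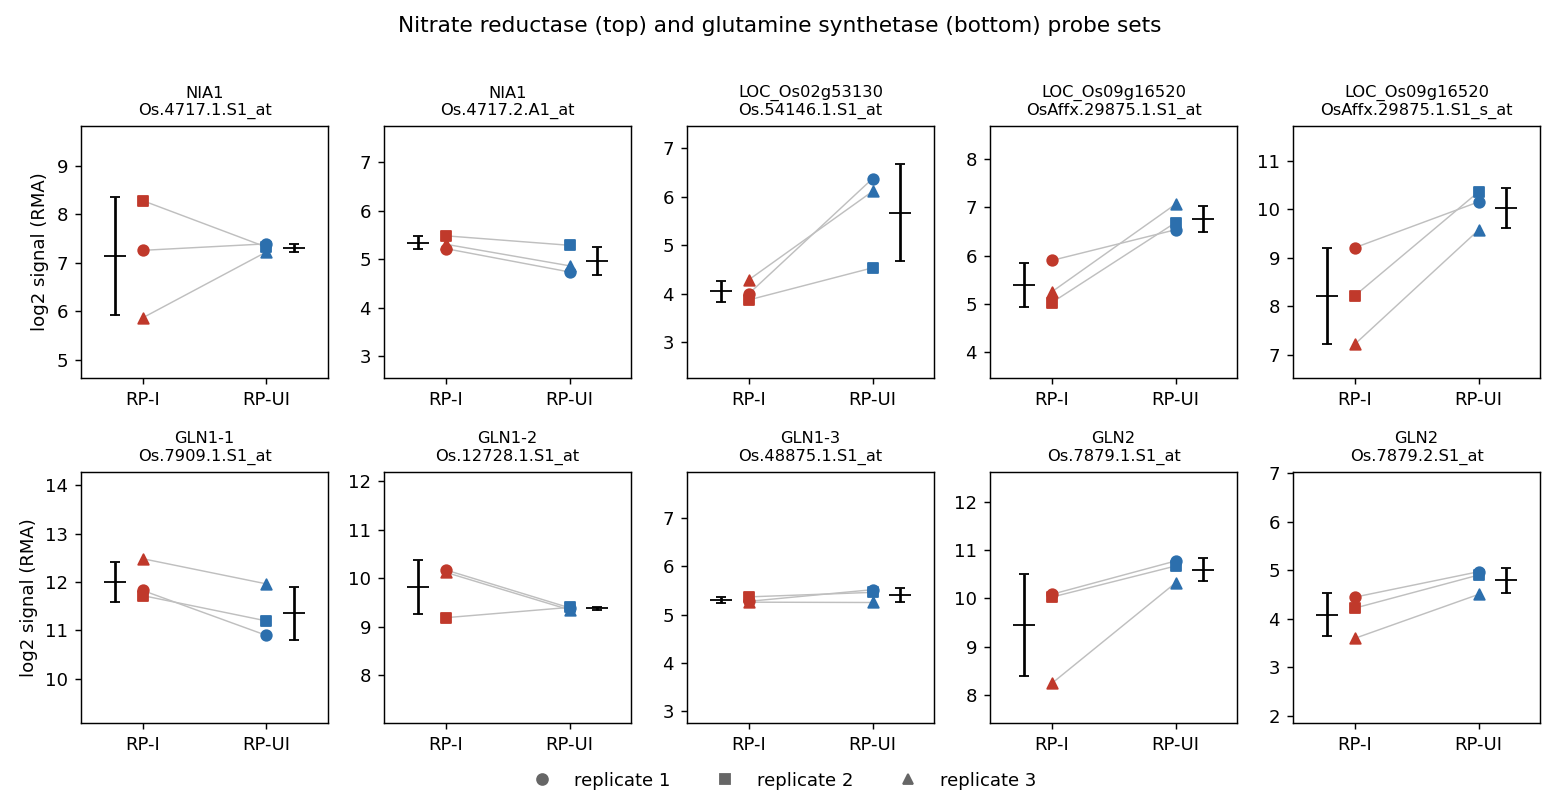
Log2 signal (RMA) of each member probe set on each array, with RP-I in red on the left and RP-UI in blue on the right. Symbols mark the replicate number, grey lines join arrays of 1 number, and black bars give the mean ± SD (n = 3). Each panel spans the same number of log2 units. GLN2 and the loci taken from the study's tables lie lower on every RP-I array, and NIA1 spreads from 5.86 to 8.28 within RP-I in its S1 probe set.

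NIA1, the gene annotated as nitrate reductase by symbol, is measured by a pair of probe sets that disagree. In the first, with the suffix S1_at, the log2 signal was 7.26, 8.28 and 5.86 in RP-I 1, 2 and 3, against 7.39, 7.32 and 7.22 in RP-UI 1, 2 and 3. The un-infested arrays lay close together while the infested ones lay on both sides of them, with SDs of 1.22 in RP-I and 0.08 in RP-UI (n = 3). The log2 fold change was -0.18 (standard error 0.57, limma adjusted p = 0.964), with a 95% interval of -1.55 to 1.19, so a change of 2-fold either way lies within it. Without RP-I 3 the value was 0.46 (adjusted p = 0.607), which turns the direction. In the other, with the suffix A1_at, the log2 signal was 5.22, 5.48 and 5.31 in RP-I, against 4.73, 5.28 and 4.86 in RP-UI. RP-I was higher in each of the 3 pairs, yet the groups overlapped, and the log2 fold change was 0.37 (standard error 0.19, limma adjusted p = 0.461). The mean of both probe sets differed by 0.10 (standard error 0.33, limma adjusted p = 0.965).

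LOC_Os02g53130 and LOC_Os09g16520 are the other loci described as nitrate reductases. The study listed their probe sets for a difference on these same arrays, so their values are a description and carry no test. For LOC_Os02g53130 (LOC4330867, with 1 probe set) the log2 signal was 3.99, 3.87 and 4.28 in RP-I, against 6.37, 4.53 and 6.11 in RP-UI. All RP-I arrays were lower and close together, and the spread lay in RP-UI, where array 2 was nearest to RP-I. The mean was 3.08-fold lower in RP-I (log2 fold change -1.62), with pair differences of -2.38, -0.66 and -1.83. Leaving out single arrays gave log2 fold changes of -2.19 (without RP-UI 2) to -1.27 (without RP-UI 1).

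LOC_Os09g16520 is described by the study as a putative nitrate reductase 1, with heme binding as the molecular function given. The gene table used here pairs its probe sets with no gene, so the description could not be checked. In the probe set with the suffix S1_s_at, which marks probes shared by several transcripts, the log2 signal was 9.21, 8.21 and 7.21 in RP-I, against 10.15, 10.36 and 9.57 in RP-UI. In that with the suffix S1_at it was 5.90, 5.03 and 5.25 in RP-I, against 6.53, 6.68 and 7.06 in RP-UI. Neither probe set had any overlap between the groups, where 9.73% of all probe sets tested had every RP-I array below. That share is no fair measure here, since both were listed for a difference on these same arrays. Both were lower in RP-I in all 3 pairs, with log2 fold changes of -1.82 and -1.37. In the pairs numbered 1, 2 and 3 the differences were -0.95, -2.15 and -2.36 in the first of them and -0.64, -1.66 and -1.81 in the second. Pair 1 thus showed the smallest difference in both, which is the pair of the largest difference for LOC_Os02g53130.

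GLN2 (LOC4337272) encodes the plastid glutamine synthetase and has a brighter and a dimmer probe set. In the brighter one the log2 signal was 10.08, 10.03 and 8.24 in RP-I, against 10.77, 10.67 and 10.32 in RP-UI. Every RP-I array lay below every RP-UI array, and RP-I 3 lay far below the other RP-I arrays. The mean was 2.20-fold lower in RP-I, with a log2 fold change of -1.14 (standard error 0.50, limma adjusted p = 0.390) and pair differences of -0.69, -0.64 and -2.08. Without RP-I 3 the log2 fold change was -0.53, so RP-I 3 moved this value by over 1.5 times.

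The dimmer GLN2 probe set also had lower values in RP-I, at a low mean signal (32.0 percentile of the probe sets on the array). Its log2 signal was 4.45, 4.22 and 3.59 in RP-I, against 4.97, 4.90 and 4.50 in RP-UI. The lowest of these, on RP-I 3, is near the limit of the low-signal filter (3.38, the 10th percentile of mean signal). The groups did not overlap here either, and the pair differences were -0.53, -0.68 and -0.91. The log2 fold change was -0.71 (standard error 0.26, unadjusted p = 0.0325, limma adjusted p = 0.285), and with the block it fell past the threshold (limma adjusted p = 0.0437). Without RP-I 3 the log2 fold change was -0.46, again a move of over 1.5 times. Over the 13 alternative settings run for it, the adjusted p ran from 0.0437 to 0.650. Both GLN2 probe sets were thus separated, and they were the only ones of the 7 chosen by annotation to be so, where 18.9% of all probe sets tested were separated in either direction, 9.73% with RP-I below and 9.12% with RP-I above. The mean of both GLN2 probe sets differed by -0.92 (standard error 0.37, limma adjusted p = 0.339, or 0.0667 with the block).

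Of 14 probe sets of the photosynthetic genes RBCS, RCA, CAB2R and FBPase, 8 were lower on average in RP-I, where 48.6% of all probe sets tested were. These included every probe set of RCA and CAB2R and none of RBCS. FBPase was split by gene, with log2 fold changes of -0.89 and -1.33 for LOC4332364 and of 0.05 and 0.63 for LOC4325071. The summed linear signal of the 14 probe sets was 9930 to 17128 in RP-I and 24371 to 33873 in RP-UI. It was lowest on RP-I 3, as was GLN2. This sum mainly follows CAB2R, whose probe sets were the brightest of the list. Their mean log2 signals were 12.58 and 11.51 in RP-I, against 13.89 and 13.10 in RP-UI. The brightest RBCS probe set had a mean of 10.73 in both groups. The median log2 signal of the list was 7.83, 7.89 and 7.16 in RP-I, against 7.69, 7.92 and 8.43 in RP-UI. By this median RP-I 1 and RP-I 2 lay among the un-infested arrays, but it can fall on different probe sets in different arrays. Taken within probe sets, the median log2 fold change of the list was -0.75. Of the 14, 4 had every RP-I array below and 1 had every RP-I array above, against 9.73% and 9.12% of all probe sets tested. The part of green tissue, and that of the dividing tissue given above, in the GLN2 values was not tested.

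**Figure D2:**
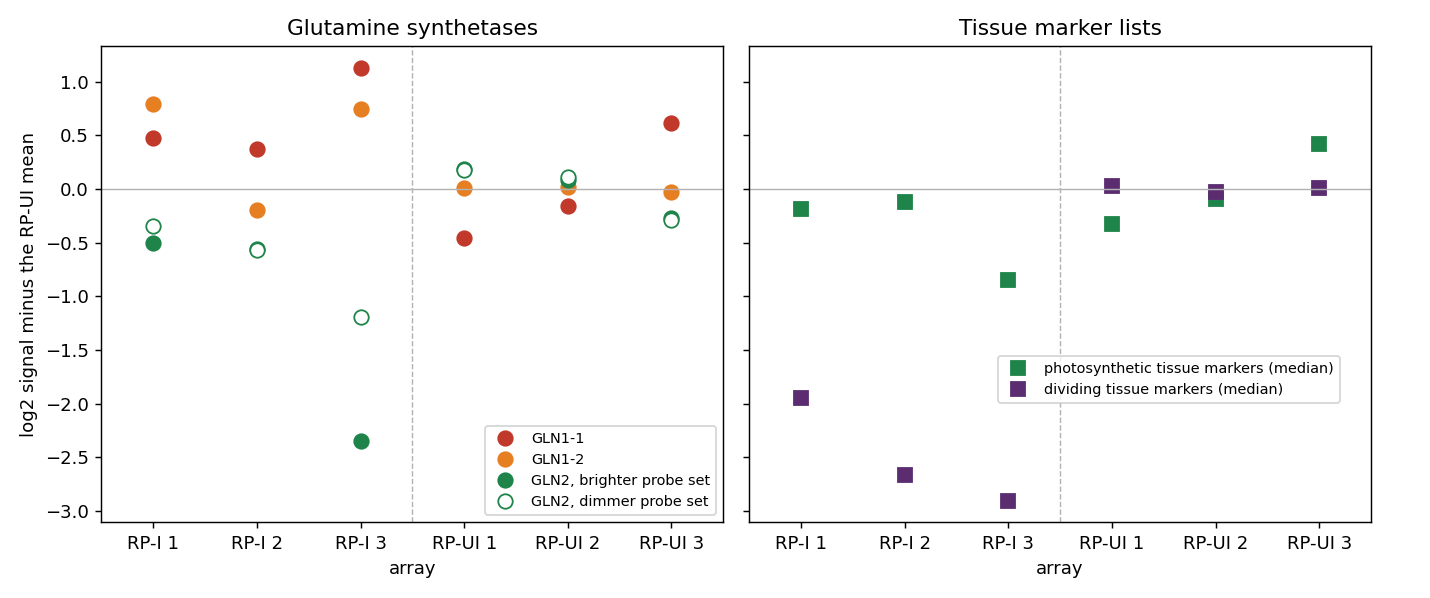
Left, log2 signal of GLN1-1, GLN1-2 and both GLN2 probe sets on each array, as the difference from the RP-UI mean. Right, the median over the probe sets of each tissue marker list on the same scale. GLN2 lies lower on all RP-I arrays and lowest on RP-I 3, GLN1-1 lies above 0 on all RP-I arrays and on RP-UI 3, and dividing tissue markers lie well below 0 on all RP-I arrays.

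GLN1-1, which encodes a cytosolic glutamine synthetase of the shoot that is needed for growth and grain filling in rice, had a mean signal at the 97.8 percentile of the probe sets on the array. Its log2 signal was 11.83, 11.72 and 12.48 in RP-I, against 10.90, 11.20 and 11.96 in RP-UI. The groups overlapped because RP-UI 3 was above both RP-I 1 and RP-I 2, while within each pair RP-I was higher, by 0.93, 0.52 and 0.52. The log2 fold change was 0.66 (standard error 0.33, limma adjusted p = 0.475, or 0.0586 with the block). Its 95% interval without the block ran from -0.15 to 1.46, so the direction is not settled by this test. It was 0.42 without RP-I 3, 0.43 without RP-UI 1 and 0.96 without RP-UI 3.

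GLN1-2, a cytosolic form that in rice takes up much of the ammonium assimilation of the root, had a log2 signal of 10.17, 9.19 and 10.12 in RP-I, against 9.39, 9.40 and 9.35 in RP-UI. The un-infested arrays agreed within 0.03 (SD, n = 3). RP-I 1 and RP-I 3 lay above them and RP-I 2 below. The log2 fold change was 0.45 (standard error 0.28, limma adjusted p = 0.599), with values of 0.28 without RP-I 1, 0.77 without RP-I 2 and 0.30 without RP-I 3. Each RP-I array thus moved the size of the mean difference and none turned its sign.

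GLN1-3, the cytosolic form known from the rice spikelet, had a low signal that hardly varied. Its log2 signal was 5.27, 5.36 and 5.26 in RP-I, against 5.51, 5.46 and 5.25 in RP-UI. The log2 fold change was -0.11 (standard error 0.14, limma adjusted p = 0.858), with a 95% interval of -0.44 to 0.22. A 2-fold change lies outside that interval, as it does for the A1 probe set of NIA1 (-0.07 to 0.82). It lies within the intervals of the S1 probe set of NIA1, both probe sets of GLN2, GLN1-1 and GLN1-2 (-0.23 to 1.12 for the last).

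The balance of cytosolic over plastid form was compared within arrays, an index chosen after the values were seen. The log2 signal of GLN1-1 minus that of the brighter GLN2 probe set was 1.74, 1.70 and 4.24 in RP-I, against 0.13, 0.53 and 1.64 in RP-UI. Only its change between arrays has a meaning, since probe sets differ in response. The groups did not overlap, though RP-I 2 lay only just above RP-UI 3, and the mean difference was 1.79 on the log2 scale. With GLN1-2 in place of GLN1-1 the index was 0.09, -0.84 and 1.88 in RP-I, against -1.38, -1.27 and -0.97 in RP-UI. It too was higher on every RP-I array, by 1.58 in the mean. GLN2 alone was already lower on every RP-I array (log2 fold change -1.14), and that difference is part of both indices. GLN1-3, the remaining cytosolic form, had a log2 fold change of -0.11 and was not put into an index. Since the genes were paired for these values, both indices are given as a description with no test.

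Glutamate synthase takes the product of glutamine synthetase on to glutamate. For the ferredoxin form of the plastid (Fd-GOGAT), which works beside GLN2, all 3 probe sets had a lower mean in RP-I, with log2 fold changes of -0.49, -0.47 and -0.40 (limma adjusted p = 0.185, 0.471 and 0.540). GLT2, the symbol of an NADH-dependent form, had a value of 0.45 (standard error 0.17, limma adjusted p = 0.311). All its RP-I arrays were above RP-UI, as in 9.12% of all probe sets tested. Over the whole glutamate synthase list 3 of 4 probe sets had a lower mean, where 48.6% of all probe sets tested did.

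Glutamate dehydrogenase, a mitochondrial enzyme that mostly releases ammonium from glutamate, showed the largest differences among the other nitrogen genes in GDH2. All 3 of its probe sets rose in the fit with the block (limma adjusted p = 0.0335, 0.0238 and 0.0263), against 4.06% of all probe sets, and none passed without it (limma adjusted p = 0.0642, 0.219 and 0.283). In the brightest of them the log2 signal was 11.12, 11.84 and 11.05 in RP-I, against 9.83, 9.64 and 10.05 in RP-UI, which is 2.82-fold higher in RP-I. The other probe sets, with the suffixes S1_at and S1_x_at, had log2 fold changes of 0.86 and 1.27. In none of the 3 did the groups overlap, where 9.12% of all probe sets tested had every RP-I array above. The brightest and that with the suffix S1_x_at are in the study's tables, a choice made on the same 6 arrays that gives no independent evidence. That with the suffix S1_at is not listed there. It was measured on the same arrays and shares its identifier with the S1_x_at probe set apart from the suffix, so it adds no independent evidence either. GDH1 and GDH3 had log2 fold changes of 0.26 and 0.17 (limma adjusted p = 0.699 and 0.829).

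Transporters and nitrate response factors completed the lists. Of the 25 probe sets of 19 genes besides the members, 19 had a higher and 6 a lower mean in RP-I, with a median log2 fold change of 0.26 against 0.01 over all probe sets tested. None passed limma at an adjusted p under 0.05, and the 3 of GDH2 passed with the block. At an unadjusted p of 0.05 or under, 7 were higher and 1 lower, where 6.58% and 7.65% of all probe sets were. The 7 became 2 without RP-UI 2 and 4 without RP-UI 1, RP-I 1 or RP-I 2, and the median was 0.14 without RP-I 2. The ammonium transporter AMT1-1 had a log2 signal of 9.82, 10.29 and 9.25 in RP-I, against 8.76, 8.19 and 9.14 in RP-UI in the brighter of its probe sets. All RP-I arrays were above RP-UI, as in 9.12% of all probe sets tested. The difference was 1.06 and 2.10 in pairs 1 and 2 and 0.12 in pair 3. The log2 fold change was 1.09 (standard error 0.34, limma adjusted p = 0.208). Among nitrate transporters the largest value was that of NRT2-3, a high-affinity form (0.58, standard error 0.17, limma adjusted p = 0.190). The response factors, which bind the promoters of nitrate genes in Arabidopsis, had values of 0.20 for NLP1, -0.18 for NLP2 and 0.19 for NLP3 (limma adjusted p = 0.874, 0.785 and 0.919).

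**Figure D3:**
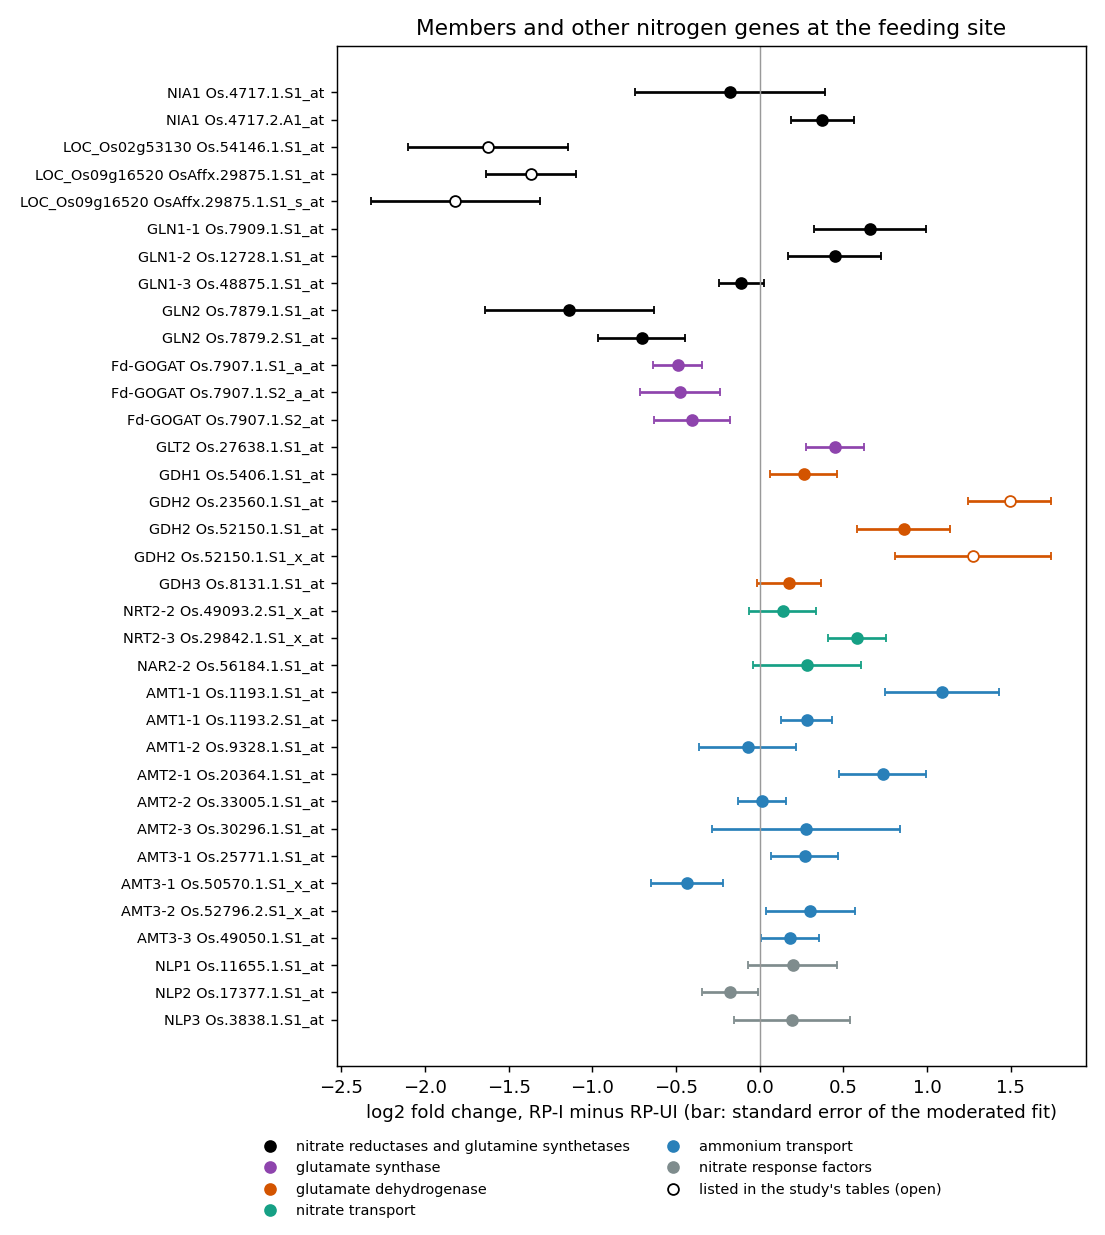
Log2 fold change (RP-I minus RP-UI) with the standard error of limma's moderated fit for each member probe set and each probe set of the other nitrogen genes, coloured by list. Open circles are probe sets listed in the study's tables. GLN2 and Fd-GOGAT lie left of 0, GDH2 lies right of 0 in all 3 probe sets, and the loci described as nitrate reductases in the study's tables lie farthest left at -1.37 to -1.82.

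Among 3055 to 3057 probe sets with a gene name, those whose signal ran most alike with each member over the 6 arrays were sought by Pearson's correlation with the member's brightest probe set, as a description with no test, since 6 arrays share the group difference and the deviation of the arrays numbered 3. GLN2 ran closest to ADIPOR1 (r = 0.998) and to KRP1, an inhibitor of cyclin-dependent kinases (r = 0.994). GLN1-1 ran closest to CIPK14, a kinase regulated by calcium sensors (r = 0.998), and to METK3 (r = 0.992). GLN1-2 ran closest to the sucrose transporter OsSUT2 (r = 0.976) and GH3.4 (r = 0.966), and GLN1-3 to OFP8 (r = 0.965) and HIRL2 (r = 0.962). NIA1, by its wide spread within RP-I, ran closest to OsCASPL5B1 (r = 0.993) and the expansin EXP3 (r = 0.986). LOC_Os09g16520 ran closest to SEC10 (r = 0.998) and CDC2-2 (r = 0.996), and LOC_Os02g53130 to OSKgamma (r = 0.966) and MYBS2 (r = 0.947). No pair of members shared a closest gene.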

How the data were processed

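RMA values of 6 Affymetrix Rice Genome Arrays were used as deposited, as log2 signals per probe set. The authors made these log2 values with RMA (background correction, quantile normalization, summary per probe set) on GeneSpring. Affymetrix Expression Console is named beside RMA in the submitters' processing notes. The notes state no version of Expression Console or RMA. The authors pooled material of the 3 times before hybridization. The number of arrays limits the precision.

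After leaving out 123 control probe sets, those whose mean reached the 10th percentile were kept, as 51532. RP-I was compared with RP-UI with lmFit and eBayes of limma 3.58.1 in R 4.3.3, a check on simulated arrays having been run first. SDs were taken within each group (3 arrays), and groups without overlap are called separated. Tables were read with pandas 2.3.3 and plots drawn with matplotlib 3.10.9.

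Same-numbered arrays had deviations from their group means that correlated at 0.521, 0.308 and 0.624, each above 0.1, so the replicate block is given where it changes a call. Across numbers, RP-I 2 with RP-UI 1 (0.295) and RP-I 1 with RP-UI 2 (0.244) also passed 0.1, near the value of pair 2. Arrays numbered 3 had negative values with all others of the opposite group (-0.547 to -0.347). Pairs 1 and 2 are thus not clearly told apart. The source of the pairing is not stated, and a difference of the arrays numbered 3 alone would raise all of the same-numbered values.

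Genes were matched through GEO's platform annotation and the synonyms in a RefSeq gene table (22436 probe sets name 1 gene). GS2 and AS2 also name genes of other families, which were left out. GLT2 was added after the lists were written, and the synonym FBPase matched a pair of genes. The nitrite reductase and asparagine synthetase lists matched no gene by symbol and were not analysed here. Members, lists and tests were chosen with earlier results of these data known. All member probe sets are named, and for each member the 2 closest named probe sets. Of the other nitrogen lists, probe sets that passed in limma or with the block are named, or the largest where none passed. Dividing tissue markers are named where they passed in limma, besides OSH1, and photosynthetic markers by gene. GLT2, Fd-GOGAT, GDH1, GDH3, NLP1 to NLP3 were named besides, after their values were seen.

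Alternatives were the replicate block, no filter or a filter on each array, a second quantile normalization, median centring, an intensity trend with a robust prior, the mean of a gene's probe sets, each array left out, and, added after seeing the data, both arrays numbered 3 left out.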

Additional observations from a re-analysis of the deposited data

How the results depend on the processing

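The number of probe sets called over the array (290 in limma) was 4379 with the replicate number as a block, 126 with each array centred on its median (45 higher and 81 lower in RP-I, against 121 and 169), 87 with an intensity trend and robust prior (20 higher and 67 lower), 2492 without both arrays numbered 3, and 0 to 280 when single arrays were left out (280 without RP-I 3, 0 without any other, where 5011 to 7977 reached an unadjusted p of 0.05). The share of calls higher in RP-I was 41.7% in limma, 23.0% with the trend and robust prior, 57.7% without both arrays numbered 3 and 61.4% without RP-I 3. Of the 7 member probe sets chosen by annotation, 0 were called in limma and 1 with the block, the dimmer GLN2 probe set (-0.71, adjusted p = 0.0437), and 0 under each other setting. At an unadjusted p of 0.05 or under there was 1 (14.2% of all probe sets), against 4 with the block (23.1%), 2 after a second quantile normalization (14.3%), 3 without both arrays numbered 3 (20.8%) and 0 to 2 with single arrays left out (9.72% to 15.5%, with 0 without RP-UI 1). Separated probe sets numbered 2 (18.9% of all), against 4 without both arrays numbered 3 (50.8%) and 2 to 4 with single arrays left out (24% to 35.9%). Among the other nitrogen genes 0 of 25 probe sets were called (0.563% of all probe sets), and with the block 3, all of GDH2 (8.5%). Without both arrays numbered 3 there were also 3, but 1 of glutamate dehydrogenase and 2 of ammonium transport, where 2492 of all 51532 were called. NIA1 (S1 probe set, -0.18) ranged from -0.75 to 0.46 with single arrays left out, and turned to 0.46 without RP-I 3, 0.41 without both arrays numbered 3 and 0.10 as the mean of its probe sets. The cause was not tested. Of 134 comparisons of a member probe set with an alternative, the other 130 kept direction and call, or for the loci of the study's tables stayed within 1 SD. With 3 arrays a group, a difference of 2-fold could not be called for the S1 probe set of NIA1 or the brighter GLN2 probe set. Their SDs in RP-I were 1.22 and 1.05. Without the block the same held for GLN1-1, GLN1-2, the dimmer GLN2 probe set and the A1 probe set of NIA1 (standard errors 0.33, 0.28, 0.26 and 0.19). The brightest GDH2 probe set, 2.82-fold higher with a standard error of 0.25, was itself not called (limma adjusted p = 0.0642).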
